A study of Gallus gallus with 8 samples.

Results

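Genes of cytokines, chemokines, colony stimulating factors, interferons and their receptors, together with the Toll-like receptors (TLRs), were described in the liver of broiler chickens raised at a high or a low stocking density. They were chosen by gene symbol alone, from names that start with IL and a digit, CCL, CCR, CXCL, CXCR, CX3C, TNFSF, TNFRSF, IFNA, IFNG, IFNL, CSF or TLR. The rule matched 132 names in the authors' deposited table, and 117 of these had a group mean above 0, out of 20170 such genes in all. These 117 members comprise 43 ligands, 64 receptors, 9 TLRs and IL4I1, an amino acid oxidase that the name rule also takes in. The study compared livers of birds labelled male on day 46, raised to a final target density of 39.1 kg/m2 (8 lb/ft2, labelled D, high density) or of 24.4 kg/m2 (5 lb/ft2, labelled A, low density). Each group had 4 libraries, and each library was an equal pool of RNA from 4 birds of its group, so that a group stands for 16 birds. No other treatment is given in the labels, and the breed or line of the birds is not stated in the sources used here.

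Cytokines are secreted or membrane-bound proteins with which immune and tissue cells signal, and chemokines are those that guide the migration of leukocytes. Interleukin, interferon and colony stimulating factor receptors mostly signal through JAK kinases and STAT factors, chemokine receptors through G proteins, and TNF receptors and TLRs through adaptor proteins to NF-kappa-B. The liver receives blood from the gut, and its Kupffer cells, endothelial cells and resident lymphocytes meet microbial products there, while hepatocytes answer interleukin 1 and interleukin 6 with acute phase proteins. In birds the heterophil takes the place of the mammalian neutrophil.

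The data are the authors' own comparison of the groups. For each gene the authors' deposited table gives the mean of the higher group, the log2 fold change of high over low density, a p-value and an adjusted p-value, and it gives no values per library, so the spread between pools is not known here. The other group mean was computed from these, on the assumption that mean and fold change share a scale. That scale is not named. Where both means of a gene are given below, only the higher stands in the authors' deposited table, and the lower is computed. The lowest mean above 0 was 0.0326 among the 190 genes spanning up to 200 bases and 0.000316 among the 7814 genes spanning 5000 to 20000 bases in the authors' deposited table. A lowest value also falls with the number of genes, but the 5th percentiles of these sets were 0.0507 and 0.00180 in the same order. This is the pattern of a value divided by length, though the spans run from start to end of a gene model and are not transcript lengths. Levels of different genes are set side by side below on that footing alone. An approximate standard error (SE) was computed from each fold change and its p-value under the assumption of a Wald test, which the table does not state, and approximate 95% intervals rest on it. Read depth per library is not known.

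No member passed an adjusted p of 0.05. Of all 20170 genes, 55 did in the authors' deposited table (0.273%), 32 of them higher (0.159%) and 23 lower (0.114%) at high density, and the smallest adjusted p of a member was 0.407, that of CX3CL1. The test behind these p-values is not named, and they can reflect no more than the spread between the pooled libraries. At an unadjusted p under 0.05 there were 9 members, 7.69% of the 117, against 5.58% of all genes in the authors' deposited table. Of these 9 members 4 were higher (2.46% of all genes were) and 5 lower (3.12% of all genes were). The higher ones were the chemokine CX3CL1 and the receptors CSF2RA, IL1R1 and TNFRSF10B, and the lower ones were the ligands CCL5, CSF3 and IFNA1_3 and the receptors CX3CR1 and IL21R. In sign alone, 56 members were higher and 61 lower, against 50.3% and 49.7% of all genes in the authors' deposited table. The median log2 fold change was -0.02 over the members and 0.001 over all genes. In bulk tissue, fewer cells of a type and less RNA per cell cannot be told apart.

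Members of higher level had smaller errors. A mean of at least 1 was reached by 56 members, 27 of which were higher and 29 lower, against 47.8% and 52.2% of the 10867 genes at that level in the authors' deposited table. Of these 56 members, 7 had an unadjusted p under 0.05, or 12.5%, against 6.41% of all genes at that level. The median approximate SE of the 56 members was 0.15 on the log2 scale, and it was 0.57 among the 61 members below that level. For 51 of the 56 the approximate 95% interval lay inside a doubling or halving, the exceptions being CCL1, CCL5, CSF3, IFNA1_2 and IL22RA1. Of the 61 members with lower means 14 had an interval that narrow. The largest p among the genes called in the authors' deposited table was 9.24e-05, which a member with the median SE of the 56 would meet only at a log2 fold change of 0.60, or 1.52-fold.

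**Figure D1:**
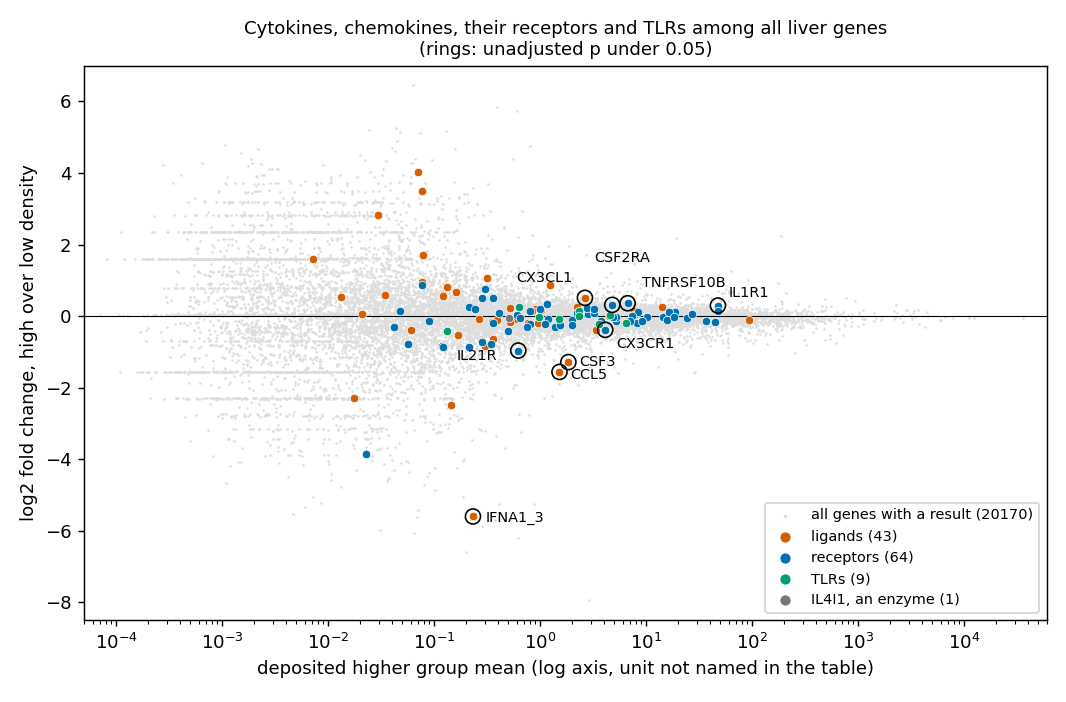
Log2 fold change of high over low density (vertical axis) against the deposited higher group mean (horizontal log axis, unit not named) for all 20170 genes in grey and for 43 ligands, 64 receptors, 9 TLRs and IL4I1 in colour. Rings mark the 9 members with an unadjusted p under 0.05; the spread narrows as the mean rises, and IFNA1_3 lies at -5.60 among genes of low mean.

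Ligands were mostly at low levels. Only 12 of 43 (27.9%) reached a mean of at least 1, against 38 of 64 receptors (59.4%), 6 of 9 TLRs (66.7%) and 53.9% of all genes. The median higher mean was 0.351 for ligands, 2.01 for receptors and 2.32 for TLRs, against 1.51 for all genes. A further 15 names had no result, since every value of theirs is 0 in the authors' deposited table, and 14 of them are ligands. They are the interleukins IL3, IL4, IL5, IL9, IL13, IL17A, IL17C and IL22, the colony stimulating factor CSF2, the chemokine CCLL4, the interferon alpha copy IFNAL2, the 3 copies of interferon lambda IFNL3 and, as the 1 receptor, IL20RB. In sign, 25 ligands were higher and 18 lower. The quartiles of their log2 fold changes were -0.18 and 0.59, around a median of 0.14. Among the 32 ligands with a mean of at least 0.1, 50% were lower and the median was -0.03. In the 12 ligands whose mean reached 1, the median was 0.08, and the signs split into 8 positive and 4 negative. The sign of the median thus changed with the lowest mean that was admitted.

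Of the 17 chemokines, 11 were higher and 6 lower (median log2 fold change 0.16). CX3CL1, or fractalkine, a chemokine that also stands as an adhesion molecule on the cell surface, had group means of 2.65 at high density and 1.86 at low density in the authors' deposited table (ENSGALG00000026663, GRCg6a chromosome 11, 771897 to 778309). Its log2 fold change of 0.51 (approximate SE 0.18) had the smallest p of all members, 0.00358, and an adjusted p of 0.407, both as the authors' deposited table lists them. CCL5, a chemokine that attracts T cells, NK cells and monocytes and is itself made by cytotoxic lymphocytes in mammals, lay the other way (ENSGALG00000043603, chromosome 19, 582380 to 583600). Its group means in the authors' deposited table were 0.517 at high density and 1.52 at low density, a log2 fold change of -1.56 (approximate SE 0.61, p = 0.0102, adjusted p = 0.667). This was the largest size among members with a mean of at least 1, and 2.95-fold in linear terms.

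All other chemokines had an unadjusted p above 0.05. CXCL12, the homing signal of haematopoietic cells and lymphocytes, had the highest mean of the class, 7.69 at high density and 6.99 at low density in the authors' deposited table, with a log2 fold change of 0.14 (approximate SE 0.14). CCL19, which guides T cells and dendritic cells, is annotated as neighbouring copies on chromosome Z. CCL19_1 had means of 4.46 at high and 4.45 at low density in the authors' deposited table (log2 fold change 0.003, approximate SE 0.18), and CCL19_2 had means of 2.57 and 3.34 in the same order (-0.38, 0.25). The heterophil attractants IL8 and IL8L1, which despite their names are chemokines, had log2 fold changes of -0.15 and -0.10 at means of at most 0.515 in the authors' deposited table, with approximate SEs of 0.44 and 0.43. IL8, IL8L1 and CCL19_2 were picked after their values were seen.

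Interleukins were the least abundant ligands, with a median higher mean of 0.120 over 13 genes, of which 9 were higher and 4 lower. Only IL15 and IL1B reached a mean of 1. IL15, a growth factor of NK cells and memory T cells, had means of 14.1 at high density and 11.9 at low density in the authors' deposited table, a log2 fold change of 0.25 (approximate SE 0.16, p = 0.123). It was picked after its values were seen. IL1B, the inflammatory cytokine interleukin 1 beta, had means of 2.24 at high density and 1.89 at low density in the authors' deposited table (log2 fold change 0.25, approximate SE 0.29). IL6, the main inducer of acute phase proteins, stood near the lower limit of the table with means of 0.00714 at high density and 0.00235 at low density, the lowest higher mean of all members. In the authors' deposited table its log2 fold change was 1.60, a value shared within 0.02 by 385 of the 5782 genes with a mean under 0.1, while 13 and 10 genes had values as close to points 0.2 below and above it. It is therefore not read as a value of IL6 alone. The same applies to IL2, the T cell growth factor, whose log2 fold change of -2.30 was shared in this way by 174 genes, against 4 and 8 beside it.

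The 6 interferons with a result comprised interferon gamma and 5 copies of interferon alpha on chromosome Z. IFNG, made by T and NK cells, had means of 0.168 at high density and 0.300 at low density in the authors' deposited table (log2 fold change -0.83, approximate SE 0.59). The interferon alpha models are short, 763 bases each, lie within 7387284 to 7415013 and sit inside the span of a gene model of the opposite strand, ENSGALG00000013809, which has a mean of 7.57. IFNA1_3 (ENSGALG00000050924, 7401271 to 7402033) had a log2 fold change of -5.60 (approximate SE 2.28, adjusted p = 0.73, unadjusted p = 0.0139) in the authors' deposited table, from means of 0.00480 at high density and 0.233 at low density. The mean it implies at high density is below 0.00694, the lowest mean above 0 deposited for any gene spanning 500 to 1000 bases, so the size of this fold change is not a measurement. The other 4 interferon alpha copies had the opposite sign in the table. IFNA1_2 had means of 1.24 at high density and 0.670 at low density in the authors' deposited table (log2 fold change 0.88, approximate SE 0.51), IFNA1_1 means of 0.891 and 0.778 in the same order (0.19, 0.45). IFNAL1 and IFNAL3 had higher means of 0.0709 and 0.0299, and the means of 0.00433 and 0.00421 that their log2 fold changes of 4.03 and 2.83 imply at low density are below the same limit, so these sizes are not measurements either. The value of IFNAL3 was also shared within 0.02 by 69 genes with a mean under 0.1, against 2 and 0 beside it.

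Counting of reads that match several interferon copies is, in the sources used here, not given, so the values of single copies are uncertain. Summed over the 5 copies, the group means came to 2.23 at high density and 1.69 at low density. With the neighbouring models added that carry the names IFNW1, IFN-A_1 and IFN-A_2 or no symbol, 10 models came to 3.57 at high density and 2.70 at low density, with 8 higher and 2 lower. IFN-A_1, picked after its values were seen, had -5.86 as its log2 fold change in the authors' deposited table, and the interferon omega gene IFNW1 had one of 4.67 (p = 0.0346). The lower means that these imply, 0.00483 for IFN-A_1 at high density and 0.00613 for IFNW1 at low density, are below the same limit of 0.00694, so that neither fold change has a measured size.

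**Figure D2:**
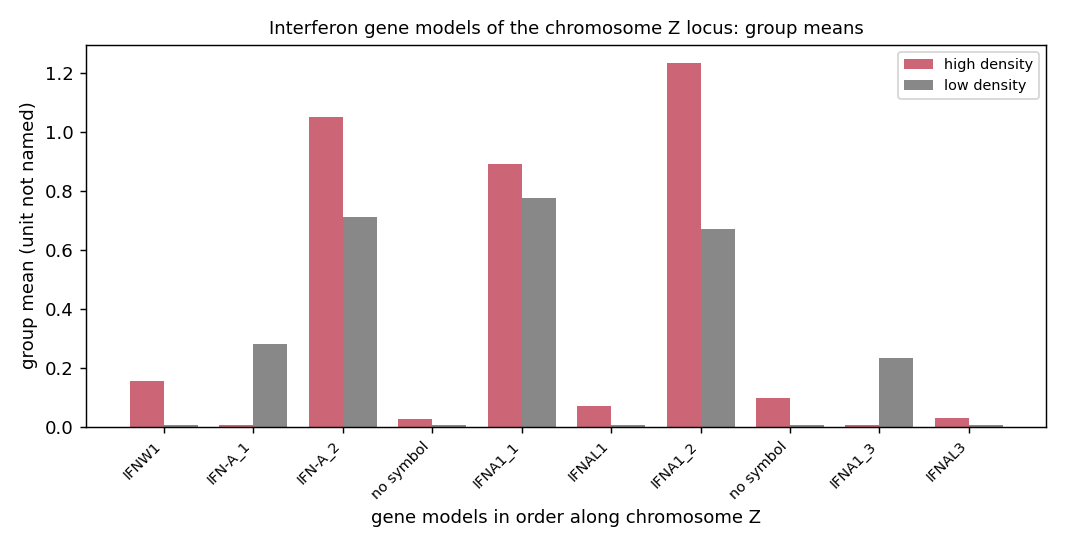
Group means (vertical axis, unit not named) of the 10 interferon gene models with a result, in their order along chromosome Z, at high density (left bar of each pair) and low density (right bar). IFNA1_3 and IFN-A_1 stand near 0 at high density, where IFNA1_2 stands at 1.24 and IFN-A_2 at 1.05; no error bars can be given, since only group means are known.

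All 5 TNF superfamily ligands were lower in sign, as were 49.7% of all genes. Their log2 fold changes lay between -0.52 and -0.07, with no p under 0.05, and 4 of the 5 had a mean under 1. The TNFSF15 model shares all its 13805 bases with TMEM268 on the opposite strand, which has a higher mean of 4.05. TNFSF8 shares 16783 of its 18662 bases with the same model. TNFSF10, or TRAIL, a death-inducing ligand, had the highest mean of all members, 86.6 at high density and 93.5 at low density in the authors' deposited table (ENSGALG00000009179, chromosome 9, 19447018 to 19455676). Its log2 fold change of -0.11 had an approximate SE of 0.14, an interval from -0.38 to 0.16. TNFSF13B, the B cell survival factor BAFF, was next in the class with means of 0.673 at high density and 0.763 at low density in the authors' deposited table (-0.18, approximate SE 0.27). A receptor for it, TNFRSF13C, was barely measured with means of 0.0336 and 0.0419 in the same order.

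Colony stimulating factors were represented by CSF1, the growth factor of macrophages, and CSF3, that of granulocytes. CSF1 had means of 7.39 at high density and 7.31 at low density in the authors' deposited table (log2 fold change 0.02, approximate SE 0.13). CSF3 had means of 0.759 at high density and 1.85 at low density in the authors' deposited table, a log2 fold change of -1.28 (approximate SE 0.51, p = 0.0116, adjusted p = 0.709; ENSGALG00000030907, chromosome 27, 7128855 to 7130727). All 1873 bases of the CSF3 model lie within the model of the thyroid hormone receptor THRA on the same strand, and how reads shared between them were counted is not stated in the sources used here. THRA itself had means of 5.93 at high density and 6.14 at low density in the authors' deposited table (log2 fold change -0.05, approximate SE 0.12).

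Receptors were the better measured side. Of 64 receptors, 27 were higher (42.2%) and 37 lower (57.8%), against 50.3% and 49.7% of all genes. Their log2 fold changes had a median of -0.04 and quartiles of -0.22 and 0.13, and 5 had an unadjusted p under 0.05 (7.81%, against 5.58% of all genes). At a mean of at least 1, 22 of 38 receptors were lower (57.9%, against 52.2% of all genes at that level). Of these 38, 4 had an unadjusted p under 0.05 (10.5%, against 6.41%). Without accessory and binding proteins, 31 of 58 receptors were lower (53.4%). All but TNFSF10 and IL15 of the 14 members with a mean of at least 10 were receptors. These 14 had log2 fold changes between -0.17 and 0.30, approximate 95% intervals that stayed between -0.46 and 0.58, and 1 unadjusted p under 0.05, that of IL1R1.

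Interleukin receptors were lower in 21 of 29 cases (72.4%, against 49.7% of all genes), around a median of -0.13. Where the mean reached 1, 13 of 19 were lower (68.4%, against 52.2% of all genes at that level). The 21 include every accessory or binding protein left out of the 58 receptors above. These are IL17REL, IL18RAP, IL1RAP, IL1RAPL1, IL1RAPL2 and IL22RA2. Whether these shares differ from those of all genes was not tested. IL1R1, the signalling receptor of interleukin 1, was among the 8 higher ones (ENSGALG00000043044, chromosome 1, 135111322 to 135129457). Its means were 47.7 at high density and 38.8 at low density in the authors' deposited table, a log2 fold change of 0.30 (approximate SE 0.14, p = 0.0376, adjusted p = 0.989). IL1RAP, the second chain of that receptor, had means of 18.1 at high density and 18.5 at low density in the authors' deposited table (-0.03, approximate SE 0.12), and the decoy IL1R2 means of 0.811 and 0.733 in the same order (0.15, 0.29). IL20RA, a receptor chain for interleukins of the IL20 group, had the highest mean of the class, 48.1 at high density and 43.6 at low density in the authors' deposited table (0.14, approximate SE 0.13), while IL19, a ligand of that group, stood at 0.0208 and 0.0202. The log2 fold change of IL19, 0.05, was shared within 0.02 by 345 genes with a mean under 0.1, against 67 and 62 beside it. Like that of IL6, it is not read as a value of this gene alone. IL6R and IL6ST, the chains through which hepatocytes read interleukin 6, had log2 fold changes of -0.17 and -0.14 (approximate SEs 0.14 and 0.14) in the authors' deposited table. Their means were 40.0 and 33.6 at high density, against 45.1 and 36.9 at low density. IL6R, IL6ST, IL1RAP and IL1R2 were picked after their values were seen.

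Among receptors of lymphocyte growth factors, IL21R, which binds interleukin 21 from helper T cells, had means of 0.320 at high density and 0.623 at low density in the authors' deposited table, a log2 fold change of -0.96 (approximate SE 0.38, p = 0.0114, adjusted p = 0.709; ENSGALG00000006318, chromosome 14, 7710463 to 7723251). IL21 itself had means of 0.0255 at high density and 0.143 at low density in the authors' deposited table (-2.49, approximate SE 1.58). IL2RG, the chain that IL21R shares with the receptors of IL2, IL7 and IL15, had a log2 fold change of -0.13 (approximate SE 0.15) in the authors' deposited table. IL2RA and IL2RB, both at -0.24 (approximate SEs 0.31 and 0.20), and IL7R at -0.02 (0.15) in the authors' deposited table were, like IL2RG, picked after their values were seen, and the intervals of these 4 include 0. All 13359 bases of the IL2RB model lie within that of KCTD17 on the opposite strand, which has a higher mean of 1.80. IL22RA1 had the largest size of log2 fold change among interleukin receptors with a mean of at least 1, 0.35 with an approximate SE of 0.36 in the authors' deposited table.

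Chemokine receptors were lower in 8 of 13 cases (median -0.13), and all 3 with a mean of at least 1 were lower in sign. CX3CR1, the receptor of CX3CL1 and a gene of monocytes, macrophages and cytotoxic lymphocytes in mammals, had means of 3.16 at high density and 4.12 at low density in the authors' deposited table (ENSGALG00000038000, chromosome 2, 44330678 to 44340445). Its log2 fold change was -0.38 (approximate SE 0.18, adjusted p = 0.959, unadjusted p = 0.0335) in the authors' deposited table, and a model of the opposite strand shares 3557 bases with it. CCR2, which draws monocytes, had means of 4.72 at high density and 5.17 at low density in the authors' deposited table (-0.13, approximate SE 0.14). CCR7, the receptor of CCL19, had a log2 fold change of -0.30 (approximate SE 0.30), and CXCR4, that of CXCL12, one of 0.20 (approximate SE 0.29) in the authors' deposited table.

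TNF receptors were higher in 9 and lower in 6 of 15 cases, with a median log2 fold change of 0.05. TNFRSF10B, a death receptor for TNFSF10, had means of 6.71 at high density and 5.22 at low density in the authors' deposited table (ENSGALG00000000452, chromosome 22, 1415487 to 1422100). Its log2 fold change was 0.36 (approximate SE 0.15, adjusted p = 0.805, unadjusted p = 0.0192) in the authors' deposited table. The receptors of highest mean were TNFRSF21, with 18.6 at high density and 17.0 at low density (0.13, approximate SE 0.13), and TNFRSF1A, a receptor of TNF, with 10.01 and 10.24 in the same order (-0.03, 0.12) in the authors' deposited table. TNFRSF6B, named after a decoy for FAS ligand in humans, had a log2 fold change of -0.31 (approximate SE 0.31) there.

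Interferon receptors had narrow intervals that include 0. IFNGR2 had means of 26.9 at high density and 25.9 at low density in the authors' deposited table (log2 fold change 0.05, approximate SE 0.11), and IFNGR1 means of 16.3 and 15.1 in the same order (0.11, 0.13). IFNAR1 had a log2 fold change of 0.12 and IFNAR2 one of -0.02 in the authors' deposited table, with approximate SEs of 0.12 and 0.13. The interval of each of these 4 receptors stayed between -0.27 and 0.37.

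Among receptors of colony stimulating factors, CSF2RA, the binding chain for granulocyte-macrophage colony stimulating factor, had means of 4.80 at high density and 3.86 at low density in the authors' deposited table (ENSGALG00000016693, chromosome 1, 130482654 to 130498132). Its log2 fold change was 0.31 (approximate SE 0.14, adjusted p = 0.898, unadjusted p = 0.0265) in the authors' deposited table, and its ligand CSF2 had no result. CSF3R, the receptor on granulocytes, had means of 2.76 at high density and 2.35 at low density in the authors' deposited table (0.24, approximate SE 0.17), and its whole model lies within that of STK40 on the same strand. CSF1R, the receptor that marks macrophages, had means of 23.4 at high density and 24.4 at low density in the authors' deposited table (-0.07, approximate SE 0.13).

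**Figure D3:**
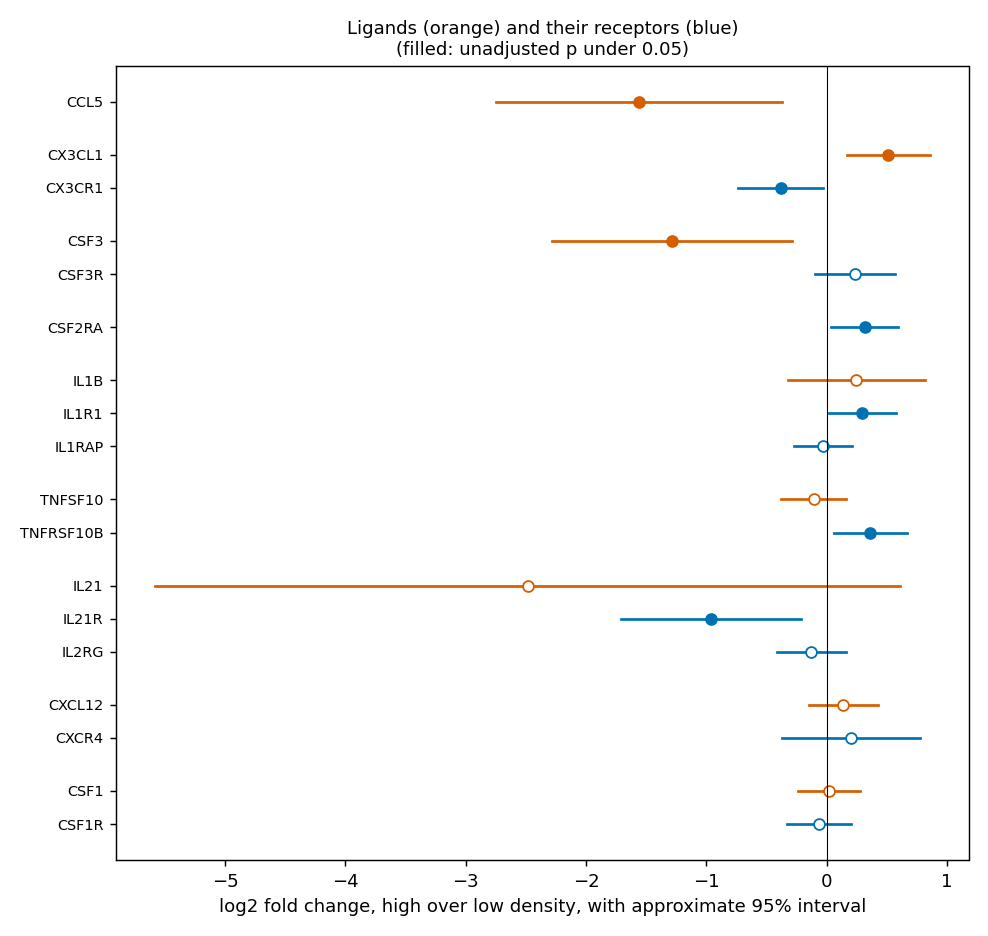
Log2 fold change of high over low density (point) with its approximate 95% interval (line) for ligands in orange and their receptors in blue, grouped by pair; filled points have an unadjusted p under 0.05. CX3CL1 (0.51) and CX3CR1 (-0.38) lie on opposite sides of 0, CCL5 (-1.56, drawn alone) and CSF3 (-1.28) lie far below 0, CSF3R (0.24) lies above it, and IL21 has the widest interval.

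Values of ligands and their receptors are set side by side in the plot of pairs. CX3CL1 was on the higher side and CX3CR1 on the lower, each with an unadjusted p under 0.05. For CSF3 and CSF3R, TNFSF10 and TNFRSF10B, IL1B and IL1R1, and IL21 and IL21R, 1 partner had such a p and the other did not. Whether the partners of a pair differ from each other was not tested, since that needs values per library.

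The 9 TLRs, receptors for microbial molecules, gave no p under 0.05, and 4 were higher and 5 lower, their median log2 fold change being -0.02. TLR2-1, a receptor for bacterial lipoproteins, had the highest mean of the class, 5.67 at high density and 6.53 at low density in the authors' deposited table, and the smallest p of the class, 0.0958 (-0.20, approximate SE 0.12). Its model shares 7094 bases with TLR2B on the same strand, which had a log2 fold change of 0.13 (approximate SE 0.17), so the split of reads between them is uncertain. TLR3, which binds double-stranded RNA, had means of 4.55 at high density and 4.47 at low density in the authors' deposited table (0.02, approximate SE 0.14). TLR5, the flagellin receptor, had means of 3.09 at high density and 3.60 at low density in the authors' deposited table (-0.22, approximate SE 0.20). TLR4, which answers lipopolysaccharide, had a log2 fold change of 0.008 (approximate SE 0.15), TLR21, which in chicken reads CpG DNA as TLR9 does in mammals, one of -0.09 (0.19), and TLR15, found in birds and reptiles, one of -0.42 (0.54) at means of at most 0.133 in the authors' deposited table. These last 3 were picked after their values were seen.

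**Figure D4:**
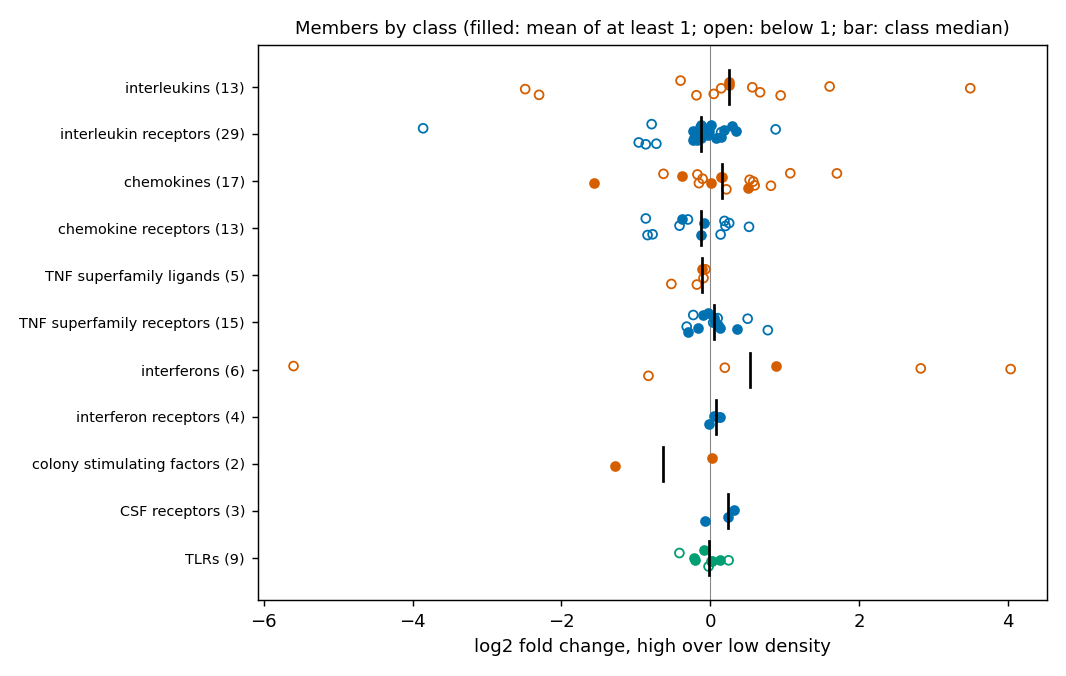
Log2 fold change of high over low density for each member except IL4I1 (point) by class, with the class median as a black bar. Filled points have a mean of at least 1 and open points a lower one. Filled points lie between -0.38 and 0.51 apart from CCL5 at -1.56, CSF3 at -1.28 and IFNA1_2 at 0.88, and the wide values belong to open points.

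Genes that carry these signals inside the cell were looked at as lists of genes outside the name rule. Every listed gene that was found by its symbol had a result, and the others are symbols that were not found. Of 35 listed genes of TLR and NF-kappa-B signalling, 30 were found, 12 higher and 18 lower (median log2 fold change -0.004), and none was called. Its 1 unadjusted p under 0.05 was that of NFKBIA, the inhibitor that NF-kappa-B itself induces, with means of 23.7 at high density and 36.8 at low density in the authors' deposited table (-0.63, approximate SE 0.24, p = 0.00954, adjusted p = 0.649). The adaptor MYD88 stood at -0.05 and the NF-kappa-B subunit RELA at -0.25 (approximate SEs 0.13 and 0.16) in the authors' deposited table. Of 25 listed JAK and STAT genes 22 had a result, 10 higher and 12 lower (median -0.02), with none called and none at an unadjusted p under 0.05. STAT3, which relays interleukin 6, stood at 0.03 (approximate SE 0.13), and its feedback inhibitor SOCS3 at -0.44 (0.41) in the authors' deposited table.

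Of 32 listed interferon-induced genes 21 had a result, 13 higher and 8 lower (median 0.03), with none called. IFI6 was the 1 with an unadjusted p under 0.05, with means of 8.03 at high density and 12.8 at low density in the authors' deposited table (-0.68, approximate SE 0.26, adjusted p = 0.641). The antiviral genes MX1 (0.09, approximate SE 0.29), RSAD2 (0.15, 0.27), OASL (0.02, 0.18) and IFIT5 (0.0006, 0.20) had intervals that include 0 in the authors' deposited table. Relatives of the members under other names had a result in 26 of 34 cases, 7 higher and 19 lower (median -0.13), with none called and IFNW1 as the 1 with an unadjusted p under 0.05. They included the cytokine MIF, with means of 65.8 at high density and 77.3 at low density in the authors' deposited table (-0.23, approximate SE 0.14). The death receptor FAS stood at 0.24 (approximate SE 0.18) and CD40, a receptor for T cell help, at -0.16 (0.15) in the same table.

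Marker lists of blood and liver cells are set beside these values. All 14 T and NK cell markers with a result, of 20 listed, were lower in sign, with a median log2 fold change of -0.51 and group means that sum to 53.1 at high density and 73.5 at low density, and 6 had an unadjusted p under 0.05. The log2 fold changes of the 14 ranged from -0.66 to -0.09. GNLY, a cytolytic granule protein, was the 1 called (-0.58, approximate SE 0.15, adjusted p = 0.0396), and CD3E stood at -0.43, both in the authors' deposited table. GNLY alone made up 21.5 of the sum at high density and 32.1 at low density. The part of T and NK cells in the values of the members was not tested. Of 12 listed heterophil markers 11 had a result, 9 higher and 2 lower (median 0.87), with sums of 103.3 at high density and 96.0 at low density, none called, and 4 of the higher and 1 of the lower at an unadjusted p under 0.05. LYG2, 1 of the 2 lower markers, alone made up 53.7 of the sum at high density and 65.1 at low density. The part of heterophils in the values of the members was not tested either.

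Macrophage and Kupffer cell markers were lower in 9 of 11 cases by small amounts (median -0.05, sums of 446.6 at high density and 476.4 at low density), and none had an unadjusted p under 0.05. Endothelial markers were split 6 to 5 (median 0.002, sums of 139.3 and 140.8 in the same order), B cell markers were higher in 7 of 9 cases (median 0.10, sums of 19.2 and 19.9), and thrombocyte markers lower in 6 of 8 (median -0.17, sums of 14.3 and 15.2). Erythrocyte markers were higher in 10 of 11 cases (median 0.43, sums of 471.8 at high density and 327.2 at low density). Of these 4 lists none had a called gene. At an unadjusted p under 0.05 there were 1 B cell marker, which was higher, and 4 erythrocyte markers, 3 higher and 1 lower. Hepatocyte markers, which check the labelled tissue, had summed means of 74081 at high density and 75744 at low density, 17 of 18 with a result, 10 higher and 7 lower (median 0.02). No listed marker that was found by name had a mean of 0, so a listed marker without a result is a symbol that was not found. On chromosome W, which female birds carry, all 12 genes that reached a mean of 0.5 had a higher value (median 0.94, 1 with an unadjusted p under 0.05), although the labels give every bird as male; the 481 genes of chromosome Z at a mean of at least 1 had a median of -0.02, against -0.007 on the autosomes. The part of a sex difference in any value of the members, 11 of which lie on chromosome Z, was not tested.

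**Figure D5:**
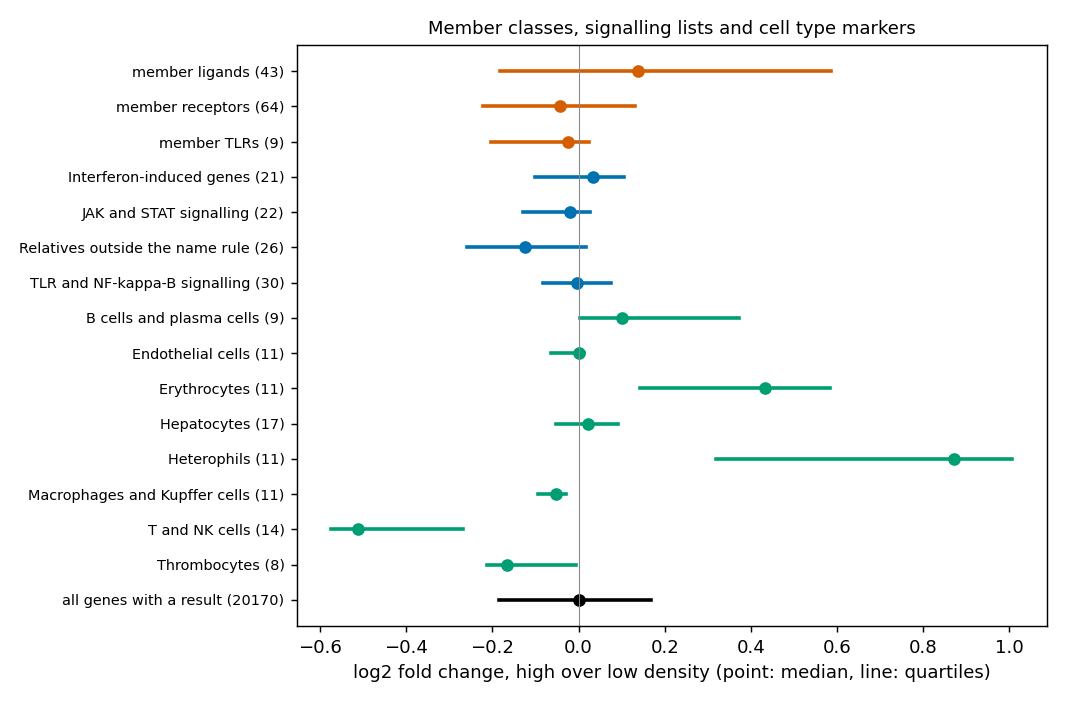
Median log2 fold change of high over low density (point) with quartiles (line) for the member ligands, receptors and TLRs (orange), 4 signalling and relative lists (blue), 8 cell type marker lists (green) and all 20170 genes (black), with the number of genes in brackets. T and NK cell markers lie at -0.51 and heterophil markers at 0.87, while the members' classes lie between -0.04 and 0.14.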

How the data were processed

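Liver RNA was sequenced on an Illumina HiSeq from 4 libraries per group, per the labels' protocols. The deposited table holds 1 comparison made by the authors, high over low density, for 23613 Ensembl genes of build GRCg6a, per the submitters' processing notes. Per the file headers, its columns are the higher group mean (another scale that is not named, with a sum of 407974), the log2 and the signed fold change, of which the second serves as a score, and p-values with Benjamini-Hochberg and Bonferroni adjustments. Aligner, counting, normalization and test are, in the sources used here, not given. In 3443 genes every deposited value is 0, and these were taken as having no result. Recomputing the deposited adjustment over all genes, with those set to 1, differed by at most 2.4e-05. The table holds 0 columns of values per library, so the authors' test was used as it stands and no test was run on samples.

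Approximate SEs are the size of the log2 fold change over the normal quantile of its p-value (scipy 1.17.1, pandas 2.3.3). This step and the adjustment were run on data simulated under the same normal model. That checks the code and not the assumption of a Wald test. Members, classes and lists were chosen with earlier results of these data known. Of the members, those named are every one with an unadjusted p under 0.05, and in each of 8 classes the 2 of highest mean and the 2 of largest log2 fold change at a mean of at least 1. Ligand or receptor partners of these were added from a list of pairs. That list is not complete, so some partners among the members are not named. Every other member given with a value (CCL19_2, IL8, IL8L1, IL15, IL6, IL2, IFNAL1, IFNAL3, IL1RAP, IL1R2, IL6R, IL6ST, IL2RA, IL2RB, IL2RG, IL7R, IL18R1, TNFRSF9, TLR2B, TLR4, TLR15 and TLR21) and the examples from lists were picked after their values were seen. Sequences and 1 member that this rule names are not reported here.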

Additional observations from a re-analysis of the deposited data

How the results depend on the processing

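The count of called members was 0 under the adjusted p of 0.05, and also at thresholds of 0.01 and 0.1, after the Bonferroni adjustment and with the adjustment recomputed over the 20170 genes with a result; 9 members had an unadjusted p under 0.05. The share of members with an unadjusted p under 0.05, the share that was lower and the median log2 fold change were recomputed for all members, ligands, receptors and TLRs at a mean of at least 0.1 or 1, without models that overlap another on their strand, and without accessory and binding proteins. Besides the receptors listed above as left out, this last step removed the chemokine CCLI5 and the enzyme IL4I1, which left 109 members. The decoys IL1R2 and TNFRSF6B were kept. The medians were also recentred and replaced by an error-weighted mean. The median changed sign for ligands at a mean of at least 0.1 (-0.03, against 0.14) and for all members without accessory and binding proteins (0.003, against -0.02, with 49.5% lower, against 52.1%), in each case within the binomial (rank) 95% interval of the reported median. For ligands at a mean of at least 1 the median kept its sign (0.08), as did the error-weighted mean of all ligands (0.03). Of the shares, 1 left the 95% binomial interval of the reported one: the share of ligands with an unadjusted p under 0.05 was 25% at a mean of at least 1 (3 of 12), against 9.30% of all ligands (4 of 43), where fewer genes remain. Over all genes at that level the share was 6.41%. Without models that overlap another on their strand, the share of ligands at any mean was 7.14% (3 of 42). Both kinds of interval treat the members as independent, though many are neighbours or share bases and all come from the same pooled libraries. Each subset also lies within the set it is compared with, so these intervals do not test whether a result depends on the processing. Leaving out members that overlap another model on their strand removes CSF3, CSF3R, both TLR2 models and IL4I1. On either strand, 20 members overlap another model with a result. No paired analysis was possible because the table holds no values per library, and for the same reason no library could be left out. The unknown read depth limits what can be said of the 61 members with a mean under 1.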

Other observations

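Cytokines under spellings that the name rule misses were looked up after the members' values were seen. IL-18, an activator of NK cells, had means of 4.34 at high density and 4.81 at low density in the authors' deposited table (log2 fold change -0.15, approximate SE 0.19), and its receptor IL18R1 had means of 0.959 and 1.12 in the same order (-0.22, 0.25). IL-12B, the shared chain of IL12 and IL23, had means of 0.717 at high density and 0.582 at low density in the authors' deposited table (0.30, approximate SE 0.28).

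Many members lie beside each other in the genome. With gaps of at most 100000 bases, 67 of the 132 names fell into 24 neighbourhoods. The IL1 receptor neighbourhood on chromosome 1 (GRCg6a, 135054624 to 135244807) holds IL1R2, IL1R1, IL1RL1, IL18R1 and IL18RAP, of which 3 were higher and 2 lower. The interferon receptor neighbourhood on the same chromosome (106580169 to 106653536) holds IFNAR2, IL10R2, IFNAR1 and IFNGR2, 2 higher and 2 lower. IL5, IL13 and IL4, the cytokines of type 2 immunity on chromosome 13 (17608228 to 17659512), had no result, and neither did the neighbours CSF2 and IL3 (17414871 to 17425289).

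TNFRSF9, a costimulatory receptor of T cells with a higher mean of 2.25, shares 468 bases with PARK7 on the opposite strand, which has a higher mean of 102.6 in the authors' deposited table. Whether counting used the strand is not stated in the sources used here. TNFRSF9 had a log2 fold change of 0.10 (approximate SE 0.18) in the authors' deposited table.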
